A study of Mus musculus with 6 samples.

Results

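Cxcl12, its signalling receptor gene Cxcr4 and the decoy receptor gene Ackr3, listed under its older symbol Cxcr7, were described in embryonic mouse pancreas. They are 3 of the 23337 gene symbols in the deposited count tables, picked by symbol, and all 3 were among the 14687 genes that passed the filter on low counts. RNA had been sequenced from pancreas of NMRI mouse embryos at E13.5, with 3 mutant pools and 3 control pools of 5 to 6 pancreata each and 1 library per pool. The mutant embryos are labelled Prox1-nullyzygous, with the genotype Prox1 GFPCre/D, and the control embryos are labelled wildtype. The labels name no treatment, and they do not say which cells or which part of the Prox1 locus the mutant alleles affect. Each library held RNA of all cell types of the organ, so fewer or more cells of a type and less or more RNA per cell cannot be told apart. The members were chosen with the mutant against control result already known, so their levels and folds are given as a description, with no p.

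Cxcl12 encodes a secreted chemokine, a small protein that guides moving cells and is made mainly by stromal cells. It binds Cxcr4, a receptor that signals through inhibitory G proteins, and Cxcr7, a receptor that takes up and removes the chemokine and acts through beta-arrestin rather than G proteins. In the developing mouse pancreas the ligand is known from the mesenchyme and Cxcr4 from the epithelium and from blood vessels, and haematopoietic cells also carry Cxcr4.

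The promoters are shown because Cxcl12 and Cxcr4 differed between the groups in the same direction, while Cxcr7 overlapped. Each sequence runs 5′ to 3′ from 250 bases before to 50 bases after the RefSeq start of the gene on GRCm38.p6. Capitals mark the motifs searched on both strands: the GC box (GGGCGG or CCGCCC), the TATA box (TATAAA or TTTATA) and both forms of the hypoxia response core (ACGTG or CACGT, and GCGTG or CACGC).
Cxcl12 (chr6:117168285-117168584, plus strand): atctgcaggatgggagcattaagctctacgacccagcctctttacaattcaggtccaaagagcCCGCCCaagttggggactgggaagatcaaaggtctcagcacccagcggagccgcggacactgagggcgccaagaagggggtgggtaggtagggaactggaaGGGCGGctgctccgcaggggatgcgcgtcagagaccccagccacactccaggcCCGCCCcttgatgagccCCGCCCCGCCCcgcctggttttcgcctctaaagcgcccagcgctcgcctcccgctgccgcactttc
Cxcr4 (chr1:128592250-128592549, minus strand): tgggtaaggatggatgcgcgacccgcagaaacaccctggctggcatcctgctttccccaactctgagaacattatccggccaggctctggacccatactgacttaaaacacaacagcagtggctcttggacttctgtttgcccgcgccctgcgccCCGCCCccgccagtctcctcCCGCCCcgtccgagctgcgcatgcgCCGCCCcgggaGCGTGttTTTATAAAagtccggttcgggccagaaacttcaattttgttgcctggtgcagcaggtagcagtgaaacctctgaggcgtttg
Cxcr7 (chr1:90203730-90204029, plus strand): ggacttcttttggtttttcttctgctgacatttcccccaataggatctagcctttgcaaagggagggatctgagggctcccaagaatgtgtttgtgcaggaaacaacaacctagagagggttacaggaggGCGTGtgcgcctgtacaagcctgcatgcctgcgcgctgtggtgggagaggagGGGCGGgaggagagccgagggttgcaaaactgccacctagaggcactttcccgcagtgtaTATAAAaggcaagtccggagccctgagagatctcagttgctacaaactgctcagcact
The Cxcl12 window held 5 GC boxes, of which the 2 nearest to the start overlap, and none of the other motifs searched. The Cxcr4 window held 3 GC boxes, 2 overlapping TATA matches, 1 on each strand, about 30 bases before the start, and 1 GCGTG. The Cxcr7 window held 1 GC box, 1 TATAAA match that begins 8 bases before the start, and 1 GCGTG. Over all 32817 promoter windows of the same length, 35.6% held a GC box, 13.6% a TATA box, 19.6% ACGTG and 32.4% GCGTG. G and C made up 64.7% of the bases for Cxcl12, 59.3% for Cxcr4 and 54% for Cxcr7, where the median window had 52.7%. Such matches describe letters in these windows and are not binding sites.

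On GRCm38 (GENCODE M21), Cxcl12 spans 117168535 to 117181367 of chromosome 6 (plus strand). On chromosome 1, Cxcr4 spans 128588199 to 128592293 (minus strand) and Cxcr7 spans 90203980 to 90216751 (plus strand). No other annotated gene overlaps any of the 3, so reads of an antisense gene did not add to their counts under this annotation. Prox1 itself is on chromosome 1, 61.5 Mb from Cxcr4 and 99.9 Mb from Cxcr7.

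The libraries held 16060424 to 17633867 counted reads, so 1 CPM, the unit of counts scaled by library size, stood for 15.9 to 17.5 reads. Prox1, the targeted gene, had 83.6, 104.4 and 91.6 CPM in the mutant pools, against 105.3, 102.7 and 106.5 CPM in the control pools. Its groups overlapped and edgeR did not call it (log2 fold change -0.17, SE 0.0743, adjusted p = 0.235), so its count is no check of the labels, which do not say which part of the gene is lost. Mutant pool 1 had 2 and control pool 3 had 9 reads of Xist, the RNA that silences an X chromosome, where the other pools had 33297 to 47135. Pdx1, a defining gene of pancreatic epithelium, was present in every library, at 33.6 to 45.8 CPM in mutants and 49.7 to 51.4 CPM in controls. Because of the Xist split, the members are also given without mutant pool 1 and control pool 3.

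Cxcl12, the ligand, was the most abundant member. It had 8441, 8676 and 8317 reads in mutant pools 1 to 3, against 5571, 5475 and 5469 reads in control pools 1 to 3. On the CPM scale these were 530.4, 510.8 and 475.6 in the mutant pools and 332.4, 333.3 and 319.4 in the control pools. Every mutant pool stood above every control pool, and the lowest mutant value was 1.43 times the highest control value. Cxcl12 averaged 505.6 ± 27.8 CPM in mutants and 328.4 ± 7.76 CPM in controls (SD, n = 3 each), a fold of 1.54 or a log2 fold change of 0.62 (SE 0.0488, 95% interval 0.53 to 0.72). Of all genes tested, 3.62% had a higher log2 fold change.

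Cxcr4, the signalling receptor, showed the widest gap of the 3 genes. Its reads numbered 528, 588 and 541 in mutant pools 1 to 3, against 282, 273 and 275 in control pools 1 to 3. The mutant pools had 33.2, 34.6 and 30.9 CPM and the control pools 16.8, 16.6 and 16.1 CPM. The groups did not overlap, and the lowest mutant value was 1.84 times the highest control value. Cxcr4 averaged 32.9 ± 1.86 CPM in mutants and 16.5 ± 0.395 CPM in controls (SD, n = 3 each), a fold of 1.99 or a log2 fold change of 1.00 (SE 0.0714, 95% interval 0.86 to 1.14). Among all genes tested, 1.63% had a higher log2 fold change.

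Cxcr7, the decoy receptor, varied most between pools of a group. It had 443, 553 and 623 reads in mutant pools 1 to 3, against 381, 504 and 430 reads in control pools 1 to 3. The mutant pools had 27.8, 32.6 and 35.6 CPM and the control pools 22.7, 30.7 and 25.1 CPM. Control pool 2 stood above mutant pool 1, so the groups overlapped. Cxcr7 averaged 32.0 ± 3.92 CPM in mutants and 26.2 ± 4.08 CPM in controls (SD, n = 3 each), and its log2 fold change was 0.29 (SE 0.124, 95% interval 0.05 to 0.53).

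Over all genes tested, edgeR called 7.95% at an adjusted p under 0.05 (3.67% higher and 4.28% lower in mutants), and no call is given for the members. Of the 3 members, 2 (Cxcl12 and Cxcr4) had no overlap between groups with mutants higher, as did 13.1% of all genes tested, and 26.4% in either direction. Nothing is read from this count of members, since this contrast was known when they were chosen. The 3 log2 fold changes stayed positive under all 14 alternatives tried, between 0.56 and 0.67 for Cxcl12, 0.96 and 1.04 for Cxcr4, and 0.20 and 0.42 for Cxcr7. Leaving out pools could not reverse Cxcl12 or Cxcr4, whose groups had no overlap. Without mutant pool 1 and control pool 3 together the log2 fold changes were 0.56 for Cxcl12, 0.97 for Cxcr4 and 0.35 for Cxcr7.

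**Figure D1:**
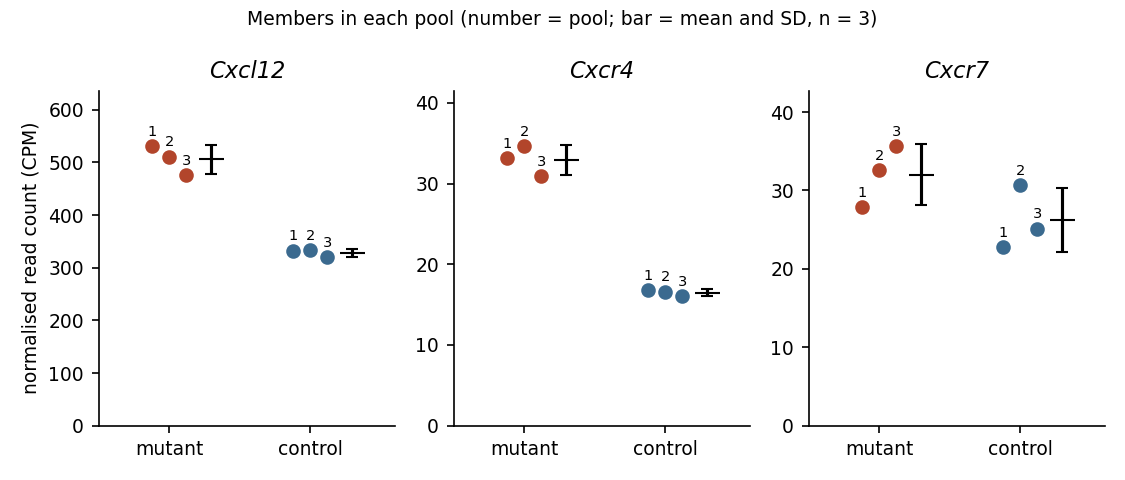
Normalised read counts (CPM, vertical axes from 0) of Cxcl12, Cxcr4 and Cxcr7 in each numbered pool, with mutant pools on the left, control pools on the right and the mean and SD of 3 pools as bars. The mutant pools of Cxcl12 and Cxcr4 all lie above the control pools, while those of Cxcr7 overlap them.

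The spread between pools can be set beside the error of counting alone. The coefficient of variation of Cxcl12 was 5.5% in mutants and 2.36% in controls, where counting reads gives 1.09% and 1.35%. For Cxcr4 it was 5.64% in mutants and 2.40% in controls, beside a counting error of 4.26% and 6.01%, so the control pools of Cxcr4 differed by less than counting error. Cxcr7 had 12.3% in mutants and 15.6% in controls, beside 4.30% and 4.78%. Most of the spread of Cxcr7 was thus not from counting.

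Levels of different genes were compared per kilobase of annotated exon, as RPKM. In mutants Cxcl12 stood at 61.8 ± 3.40, Cxcr4 at 18.2 ± 1.03 and Cxcr7 at 9.56 ± 1.17 RPKM (SD, n = 3). In controls the values were 40.2 ± 0.949, 9.13 ± 0.219 and 7.82 ± 1.22 RPKM (SD, n = 3). Cxcl12 ranked at place 559 of 14516 genes in mutants and 1057 in controls, Cxcr4 at 3194 in mutants and 6004 in controls, and Cxcr7 at 5790 in mutants and 6692 in controls. The order was thus ligand, signalling receptor and decoy receptor in both groups. In mutants the receptors did not overlap, with 17.1 to 19.1 RPKM for Cxcr4 and 8.32 to 10.6 RPKM for Cxcr7, whereas in controls their ranges of 8.88 to 9.31 and 6.79 to 9.16 RPKM did overlap. With the longest transcript in place of all exons, Cxcl12 came to 89.9 RPKM in mutants and 58.4 RPKM in controls.

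Ratios within a library do not depend on how libraries are scaled. The ratio of Cxcr4 to Cxcr7, per length, was 2.21, 1.97 and 1.61 in mutant pools 1 to 3, against 1.37, 1.00 and 1.18 in control pools 1 to 3, with no overlap. The ratio of Cxcl12 to Cxcr4 was 3.54, 3.26 and 3.40 in the mutant pools, against 4.37, 4.43 and 4.40 in the control pools, also with no overlap. Ligand to decoy receptor was 7.80, 6.42 and 5.47 in the mutant pools and 5.99, 4.45 and 5.21 in the control pools, which overlapped. On the log2 scale the mutant minus control difference was 0.70 for Cxcr4 over Cxcr7 and -0.37 for Cxcl12 over Cxcr4.

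Among the other chemokines, few were expressed at levels near those of the members. Cxcl12 alone made up 55.7% ± 3.59 of the summed RPKM of 38 chemokine ligand genes in mutants and 55.6% ± 3.36 in controls (SD, n = 3 each). Of these 38 genes, 8 had no read in any library and 15 passed the filter. The next most abundant were Pf4, a platelet chemokine, at 16.6 RPKM in mutants and 13.4 RPKM in controls, and Cxcl13, a chemokine that draws in B cells, at 14 RPKM in mutants and 6.78 RPKM in controls. Cxcr4 made up 39.1% ± 1.73 of the summed RPKM of 24 chemokine receptor genes in mutants and 27.7% ± 0.671 in controls, and Cxcr7 20.5% ± 2.56 in mutants and 23.7% ± 3.18 in controls (SD, n = 3 each). Cx3cr1, a receptor of macrophages and microglia, was at 8.53 RPKM in mutants and 8.17 RPKM in controls.

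**Figure D2:**
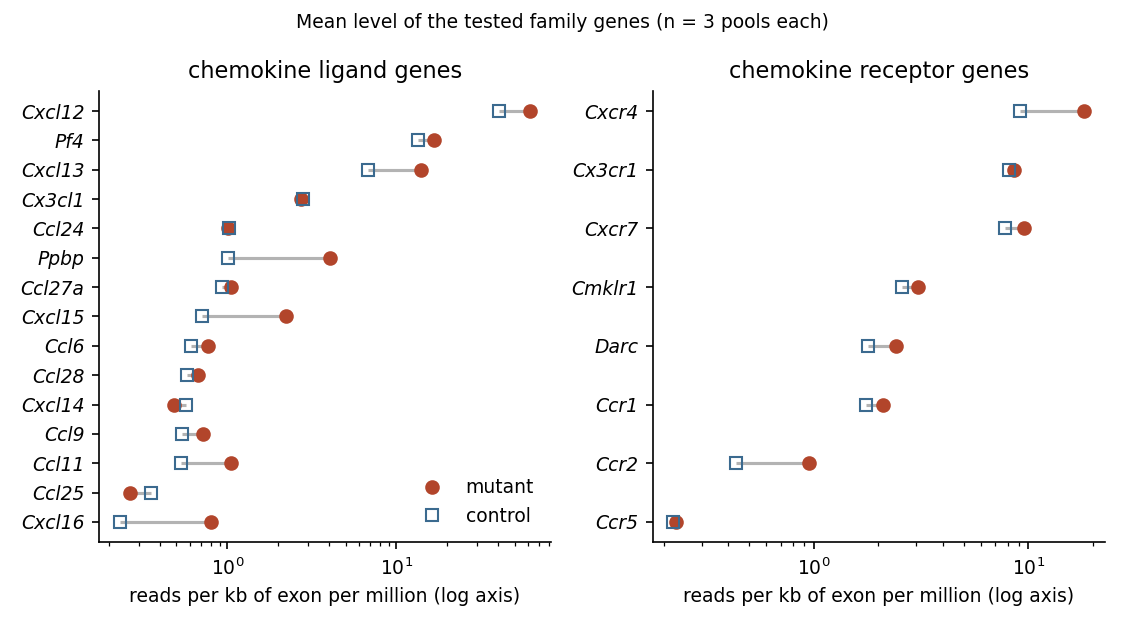
Mean level per length (RPKM, log axis, n = 3 pools each) of the chemokine ligand and receptor genes that passed the filter, with mutants as filled circles and controls as open squares. Cxcl12 heads the ligands at 61.8 RPKM in mutants and 40.2 RPKM in controls, and Cxcr4 heads the receptors at 18.2 RPKM in mutants and 9.13 RPKM in controls.

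Of 13 tested chemokine ligand genes other than Cxcl12 (35 listed), edgeR called 3 higher, 0 lower and 10 not, with a median log2 fold change of 0.34, beside a median of 0.00055 and 7.95% called over all genes tested. Ppbp, another platelet chemokine, had 5.91, 3.77 and 3.43 CPM in mutant pools, against 1.31, 1.22 and 0.759 CPM in control pools (log2 fold change 1.99, SE 0.296, edgeR adjusted p = 0.00481). Cxcl16, a membrane-bound chemokine and the ligand of Cxcr6, rose to 2.40 ± 0.505 CPM in mutants, against 0.696 ± 0.139 CPM in controls (SD, n = 3 each; log2 fold change 1.78, SE 0.277, edgeR adjusted p = 0.00561). Both Ppbp and Cxcl16 rest on 9 to 94 reads per library. Cxcl15, known from mouse lung epithelium, rose by 1.65 (SE 0.344, edgeR adjusted p = 0.0211), and this call was lost on leaving out mutant pool 1, mutant pool 3 or control pool 1. Cxcl13 had 24.5, 13.7 and 10.1 CPM in mutant pools and 11.99, 4.63 and 6.77 CPM in control pools, overlapped and was not called (edgeR adjusted p = 0.15). Ccl2, a monocyte attractant, had 3 to 16 reads per library and was not tested.

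Of 6 tested chemokine receptor genes other than Cxcr4 and Cxcr7 (22 listed), edgeR called 0, beside 7.95% of all genes tested. At an unadjusted p under 0.05 edgeR gave 1, while DESeq2 called 1 and limma voom 0. That gene was Ccr2, the monocyte receptor of Ccl2. It had 6.91, 7.83 and 4.52 CPM in mutant pools, against 4.24, 1.83 and 2.75 CPM in control pools (log2 fold change 1.12, SE 0.305, edgeR adjusted p = 0.0588; DESeq2 adjusted p = 0.00528). It was also called by edgeR without mutant pool 3 (adjusted p = 0.0459), without control pool 1 (adjusted p = 0.0377) and with no filter on low counts (adjusted p = 0.048). Cx3cr1 stood at 38.4 ± 2.22 CPM in mutants and 36.8 ± 2.78 CPM in controls (SD, n = 3 each) and was not called, at a log2 fold change of 0.06 (SE 0.0739). The median over the 6 receptors was 0.26.

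Of 29 tested genes that act on the ligand or its receptors (30 listed), edgeR called 5 higher, 1 lower and 23 not, beside 3.67% higher and 4.28% lower over all genes tested, with a median log2 fold change of 0.12. Cpm, encoding carboxypeptidase M, a membrane enzyme that trims the C terminus of peptides, rose to 46.5, 55.8 and 46.5 CPM in mutant pools, against 24.6, 26.5 and 24.9 CPM in control pools (log2 fold change 0.97, SE 0.0846, edgeR adjusted p = 0.000407). Penk, the precursor of opioid peptides that Cxcr7 also takes up, had 34.7, 29.7 and 28.5 CPM in mutant pools, against 16.7, 15.2 and 20.1 CPM in control pools (log2 fold change 0.84, SE 0.117, edgeR adjusted p = 0.00346). The groups of both genes did not overlap.

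Foxc1, a transcription factor gene that drives Cxcl12 in bone marrow stroma of mice, rose to 5.91 ± 0.429 CPM in mutants, against 3.32 ± 0.584 CPM in controls (SD, n = 3 each; log2 fold change 0.83, SE 0.169, edgeR adjusted p = 0.0189). The call was lost on leaving out mutant pool 1, mutant pool 2, control pool 1 or control pool 3. Dpp4, the peptidase that inactivates the ligand by clipping its N terminus, was the called gene that fell, to 42.1, 42.0 and 37.5 CPM in mutant pools, against 52.9, 45.8 and 53.6 CPM in control pools. Its log2 fold change of -0.33 (SE 0.0785, edgeR adjusted p = 0.0379) stayed called only without control pool 2 among the 6 libraries left out in turn. The neutrophil protease genes Elane and Ctsg, whose products cleave the ligand, were called higher from few reads. Elane had 46, 39 and 27 reads in mutant pools and 4, 3 and 4 reads in control pools. Ctsg had 58, 39 and 18 reads in mutant pools and 0, 2 and 0 reads in control pools.

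Several known inducers and partners showed no called difference. Hif1a, the hypoxia factor that induces both ligand and receptor, stood at 271.9 ± 4.68 CPM in mutants and 265.2 ± 6.16 CPM in controls, and its log2 fold change was 0.04 (SE 0.0377). Epas1, another hypoxia factor gene, was higher in every mutant pool but not called, at 0.34 (SE 0.0983, edgeR adjusted p = 0.072). Vegfa, a growth factor that induces Cxcr4 in endothelium, was at 133.7 ± 6.21 CPM in mutants and 135.2 ± 13.9 CPM in controls. Mif, an alternative ligand of Cxcr4, had a log2 fold change of 0.09 (SE 0.0533), and its receptor partner Cd74, with 14 to 31 reads per library, 0.88 (SE 0.258, edgeR adjusted p = 0.0784). Adm, a peptide gene whose product Cxcr7 clears, and Cxcl14, a chemokine reported to bind Cxcr4, had 7 to 23 reads per library and were not called.

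Of 38 tested downstream signalling genes (39 listed), edgeR called 1 higher, 0 lower and 37 not, beside 3.67% higher and 4.28% lower over all genes tested. The median log2 fold change was 0.04. Jak2, a kinase linked to Cxcr4 signalling, rose to 88.2, 79.1 and 78.2 CPM in mutant pools, against 68.9, 62.2 and 64.9 CPM in control pools (log2 fold change 0.32, SE 0.0635, edgeR adjusted p = 0.0158). Its call was lost without the pools with few Xist reads. Stat3, the transcription factor downstream of Jak2, had 69.9, 64.8 and 60.2 CPM in mutant pools and 73.9, 77.1 and 72.8 CPM in control pools and was not called (log2 fold change -0.20, SE 0.0622, edgeR adjusted p = 0.0939). Gnai2, an inhibitory G protein subunit gene, was at 0.12 (SE 0.0435) and Rac2, a GTPase gene of blood cells, at 0.52 (SE 0.183), both not called. Rgs16, a gene for a brake on G protein signalling, stood at 8.07 ± 0.459 CPM in mutants and 8.23 ± 0.118 CPM in controls (SD, n = 3 each).

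**Figure D3:**
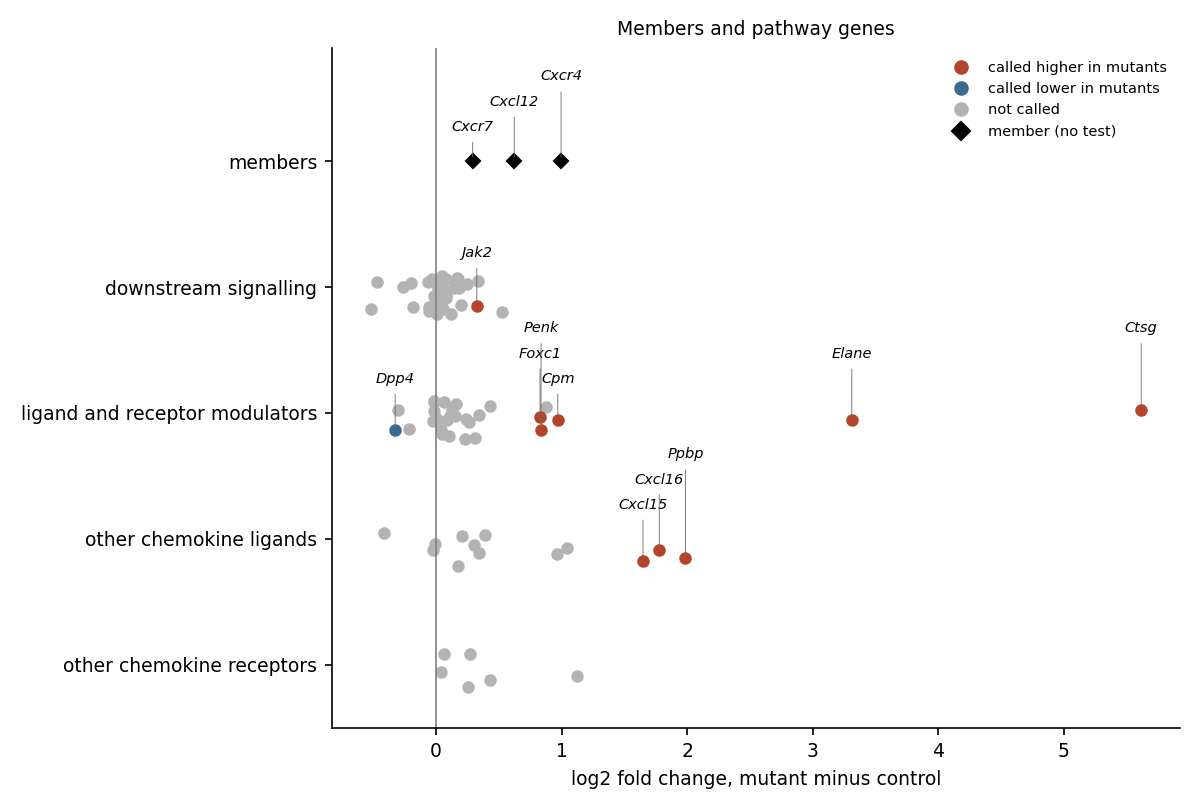
Log2 fold changes (mutant minus control) of the members as black diamonds and of each tested pathway gene as a circle, coloured where edgeR called it. Cxcr4 lies at 1.00 and Cxcl12 at 0.62, most signalling genes lie near 0, and the place of Ctsg on the axis is imprecise because its control pools held 0, 2 and 0 reads.

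Markers of the cell types known to make or sense Cxcl12 were read beside the members. The summed level of 15 mesenchyme markers was 10204 to 11724 CPM in mutants and 9195 to 9474 CPM in controls. Its log2 ratio was 0.25 with no overlap, where that of Cxcl12 alone was 0.62. The part of mesenchymal cells in the Cxcl12 difference was not tested. Most of the summed mesenchyme level came from the collagen genes Col3a1, Col1a2 and Col1a1, with means of 4171, 2437 and 2244 CPM in mutants. Vim, an abundant marker outside the collagens, overlapped at 0.05 (SE 0.0493). Of these 15 genes, 2 were called higher and 0 lower, beside 3.67% higher and 4.28% lower over all genes tested. They were Col1a1, a collagen gene, at 0.31 (SE 0.0655, edgeR adjusted p = 0.0208) and Barx1, a transcription factor gene of foregut mesenchyme, at 0.39 (SE 0.0988, edgeR adjusted p = 0.0472). Pdgfra, a receptor of fibroblasts, was not called at 0.10 (SE 0.0916). Each of the calls of Col1a1 and Barx1 was lost on leaving out any of 4 libraries. Not called were also the matrix genes Dcn at 0.64 (SE 0.187) and Lum at 0.63 (SE 0.221), whose groups overlapped, and the transcription factor genes Twist1 at -0.55 (SE 0.19) and Prrx1 at -0.18 (SE 0.0501), which were lower in every mutant pool than in any control pool.

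Pericyte and smooth muscle markers summed to 990 to 1059 CPM in mutants and 700.6 to 973.3 CPM in controls, with no overlap, and 4 of 10 tested were called higher and 0 lower, beside 3.67% higher and 4.28% lower over all genes tested. The potassium channel genes Abcc9 and Kcnj8 both stood at 0.64 (SE 0.073 and 0.0969, edgeR adjusted p = 0.00129 and 0.00486), and the proteoglycan gene Cspg4 at 0.63 (SE 0.0631, edgeR adjusted p = 0.000687). Abcc9 had 269.3, 298.7 and 314.0 CPM in mutant pools, against 194.3, 200.5 and 170.6 CPM in control pools. Mcam, an adhesion gene, was the other called marker, at 0.40 (SE 0.0762, edgeR adjusted p = 0.0148), a call lost without control pool 1. The rest were not called, among them Rgs5 at 0.02, Acta2 at 0.01 and Notch3 at 0.19. Myh11, a smooth muscle myosin gene, had 6.54, 3.41 and 2.17 CPM in mutant pools and 4.36, 73.6 and 2.16 CPM in control pools, so control pool 2 stood apart. The median log2 fold change of the 10 was 0.28 and the log2 ratio of the sums 0.35, where that of Cxcl12 was 0.62. The part of these cells in the Cxcl12 difference was not tested.

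Among 19 endothelial markers, 1 was called higher and 0 lower, beside 3.67% higher and 4.28% lower over all genes tested. All 19 had a log2 fold change above 0 (median 0.18), beside 50.2% of all genes tested. Their sum was 1095 to 1351 CPM in mutants and 966.2 to 1100 CPM in controls, with overlap, and was highest in mutant pool 1. Without both pools with few Xist reads, Pecam1 was at 0.094, Cdh5 at 0.070, Esm1 at 0.011 and Apln at -0.016. The called gene was Flt1, a receptor of vascular growth factors, at 0.38 (SE 0.0909, edgeR adjusted p = 0.0379), and 4 of the 6 libraries left out in turn ended that call. Pecam1 at 0.23 (SE 0.0906) and Cdh5 at 0.24 (SE 0.0926), adhesion genes of all endothelium, were not called. Apln and Esm1, genes of sprouting tip cells where Cxcr4 is known to be high, stood at 0.10 (SE 0.0993) and 0.02 (SE 0.18). The summed endothelial level had a log2 ratio of 0.19, where that of Cxcr4 was 1.00. The part of endothelial cells in the Cxcr4 difference was not tested. Of 5 tested lymphatic markers, 1 was called higher, Pdpn, a call lost on leaving out 4 of the 6 libraries in turn and without both pools with few Xist reads. Lyve1 at -0.50 (SE 0.157) and Flt4 at 0.009 (SE 0.0939) were not called. The summed lymphatic level overlapped between groups, at a log2 ratio of -0.0069. Of 6 tested mesothelial markers 1 was called higher, Krt19, which duct cells also express. Krt19 stood at 0.61 (SE 0.0607, edgeR adjusted p = 0.000687).

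Some blood cell markers were also higher in mutants. Of 11 tested neutrophil precursor markers, 5 were called higher and 0 lower, beside 3.67% higher and 4.28% lower over all genes tested. The list summed to 62.7 to 183.4 CPM in mutants and 5.90 to 71.8 CPM in controls, with overlap. Mpo, the myeloperoxidase gene, had 43.5, 21.8 and 17.8 CPM in mutant pools, against 2.15, 2.25 and 2.45 CPM in control pools (log2 fold change 3.59, SE 0.36, edgeR adjusted p = 0.000687). Among the mutant pools Mpo was highest in pool 1 and Cxcr4 in pool 2, and both were lowest in pool 3. Cxcr4 differed little between mutant pools 1 and 2, at 33.2 and 34.6 CPM. Control pool 1 had a list sum of 71.8 CPM, against 5.90 and 10.4 CPM in control pools 2 and 3. Its Mpo (2.15 CPM), Prtn3 (2.09 CPM) and Elane (0.239 CPM) were near those of the other control pools. Most of that sum thus came from other genes of the list. The part of these cells in the Cxcr4 difference was not tested.

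Of 11 tested macrophage markers edgeR called 0, beside 7.95% of all genes tested (3.67% higher and 4.28% lower). At an unadjusted p under 0.05 edgeR gave 2, while DESeq2 and limma voom each called 0. Of 11 tested blood progenitor, lymphoid and mast cell markers 1 was called higher, Cd3e, a T cell receptor subunit gene with 6 to 36 reads per library. Ptprc, the pan-leukocyte gene, had 13.1, 12.2 and 8.29 CPM in mutant pools and 9.19, 5.42 and 6.89 CPM in control pools and was not called by edgeR (log2 fold change 0.64, SE 0.222, adjusted p = 0.127), while DESeq2 called it (adjusted p = 0.0471). Of 14 erythroid markers, 7 were called higher and 0 lower, with overlapping sums of 1857 to 2573 CPM in mutants and 1523 to 2408 CPM in controls.

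Endocrine progenitor markers were lower in mutants, where Cxcr4 was higher. Of 13 endocrine progenitor markers, 9 were called lower and 0 higher, beside 4.28% lower and 3.67% higher over all genes tested. Their summed level was 475.3 to 504.4 CPM in mutants and 664.7 to 765.1 CPM in controls. Neurog3, the gene that commits progenitors to the endocrine lineage, changed by -1.09 (SE 0.118, edgeR adjusted p = 0.00105). Of 12 progenitor and duct markers, 3 were called lower and 0 higher, among them Cdh1, the E-cadherin gene, at -0.42 (SE 0.0745, edgeR adjusted p = 0.01), and the sums overlapped. Neural crest and neuron markers had 6 of 13 called lower and 0 higher. No marker of the mesenchyme, endothelium, pericyte, neutrophil or macrophage lists was at 0 in every library.

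**Figure D4:**
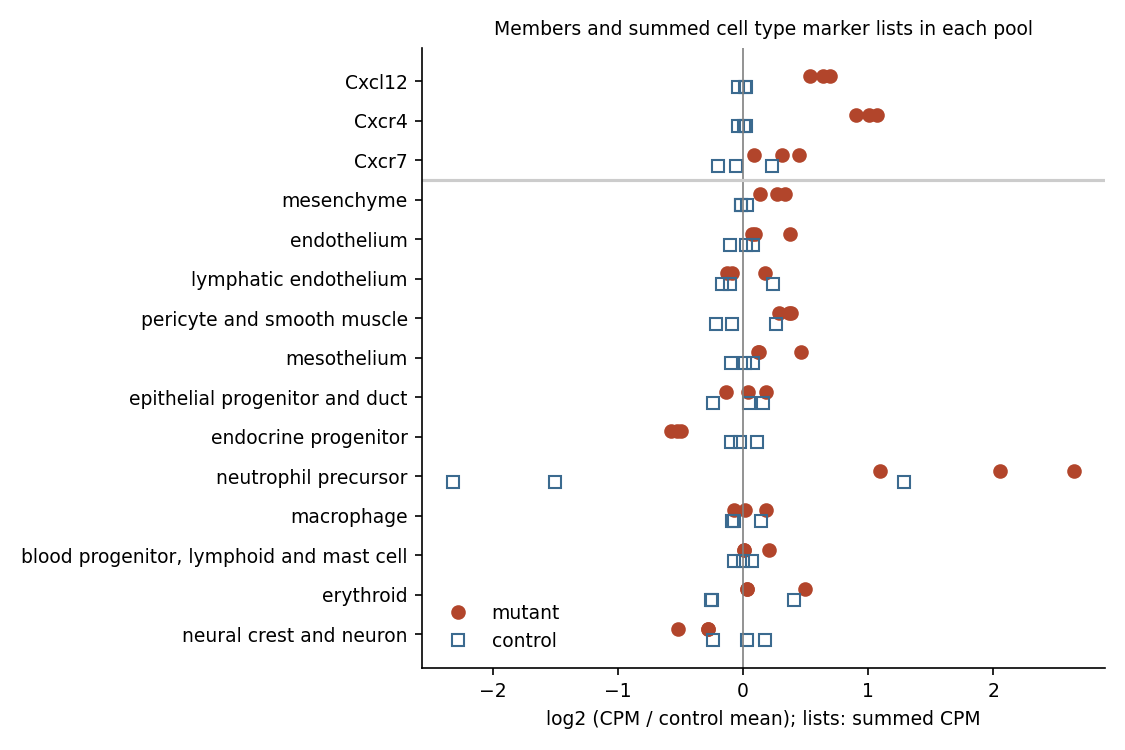
Level of each member and summed CPM of each marker list in every pool, as log2 over the mean of the control pools, with mutants as filled circles and controls as open squares. The log2 ratio of the sums was 0.25 for mesenchyme, 0.35 for pericyte and 0.19 for endothelial markers, and 2.06 for neutrophil precursor markers. Cxcr4 stood at 1.00 and Cxcl12 at 0.62. The neutrophil precursor list spreads most between pools of a group. The part of any cell type in the member differences was not tested. Collagen genes make up most of the mesenchyme sum.

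Profiles over the 6 libraries were compared as the root mean square difference of log2(CPM + 0.5) after centring each gene, among 13232 other genes whose average log2 CPM reached 1. Nearest to Cxcl12 were Adra1a, an adrenergic receptor gene, Slc7a11, Gem, Tchh and Slc1a3, a glutamate transporter gene, at distances of 0.0585 to 0.0658. Nearest to Cxcr4 were Vnn1, encoding the pantetheinase vanin-1, Cpm, Ikzf2, a zinc finger factor gene, Tspan15 and Arhgap8, at 0.0573 to 0.0825. Vnn1 had 128.8, 135.9 and 111.2 CPM in mutant pools and 60.6, 65.4 and 60.0 CPM in control pools. Nearest to Cxcr7 were Gm7694, Rragd, Hmga2, Daam2 and 5730559C18Rik, at 0.0292 to 0.055, all overlapping between groups. Cxcl12 held place 61 in the order of likeness to Cxcr4 and Cxcr7 place 1067. In the order of likeness to Cxcl12, Cxcr4 held place 410 and Cxcr7 place 1581. For likeness to Cxcr7, Cxcl12 held place 8037 and Cxcr4 place 12061. Such places depend on the mutant against control difference, which was known when the members were chosen. The nearest genes depended on single pools: without control pool 2 only 1 of the 5 remained for Cxcr4, and without mutant pool 1 or control pool 3 none of the 5 remained for Cxcl12.

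Genes beside the members on the chromosome, within 1 Mb, were also read, a choice made after the values were seen. Of 14 tested neighbours of Cxcl12, 0 were called higher and 1 lower, beside 3.67% higher and 4.28% lower over all genes tested. That neighbour was Ret, the receptor gene of enteric and sympathetic precursors, with 22.7, 29.9 and 25.6 CPM in mutant pools and 41.6, 41.9 and 51.9 CPM in control pools (log2 fold change -0.79, SE 0.118, edgeR adjusted p = 0.00472). Of 11 tested neighbours of Cxcr4, 0 were called higher and 1 lower, Tmem163, a zinc transporter gene, at -1.49 (SE 0.224, edgeR adjusted p = 0.00486). None of 7 tested neighbours of Cxcr7 was called. The median log2 fold change of the neighbours was 0.05 for Cxcl12, -0.04 for Cxcr4 and 0.04 for Cxcr7.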

How the data were processed

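RNA was sequenced from 3 mutant and 3 control pools of embryonic pancreas. The authors deposited raw read counts per gene symbol, not normalized. Cutadapt 1.13, STAR, HTSeq 0.6.1p1, DESeq2 and build mm10 appear in the submitters' processing notes. Not given in the sources used here: their roles, the annotation and the strand setting. Reads shared by near-identical genes can be lost or split by such counting.

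The counts were analysed with edgeR 4.0.16 in R 4.3.3: filterByExpr with a minimum count of 10, TMM scaling, and the quasi-likelihood F test with genotype as sole factor. Benjamini-Hochberg adjustment ran over all 14687 genes tested, and a gene was called under 0.05. Each SE was taken as |log2 fold change| divided by √F, with normal 95% intervals. The p-values measure the spread between pools of 5 to 6 pancreata. Libraries of a group differed beyond sampling noise, with chi-square per degree of freedom of 3.59 to 13.4. RPKM used exon lengths of GENCODE M21, and 22814 of 23337 symbols (97.8%) matched a gene. Promoters are from RefSeq (GRCm38.p6). The test was tested on simulated data.

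Members and lists were chosen with earlier results of these data known. Of 276 listed symbols, 273 were found as listed and 3 under another symbol. The rule for named genes took the members, up to 6 called genes per pathway list and 3 per marker list by smallest adjusted p, the 5 nearest profiles and a fixed set. A few further list members, such as Cxcl13 and Stat3, were named after their values were seen. Alternatives were DESeq2 size factors, total-count and upper-quartile scaling, no filter, DESeq2 1.42.0, limma 3.58.1 voom, a replicate block, each library left out, and both pools with few Xist reads left out.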

Additional observations from a re-analysis of the deposited data

How the results depend on the processing

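The log2 fold changes of Cxcl12, Cxcr4 and Cxcr7 kept their direction and moved by less than the spread between pools under the 14 alternatives. So did the ratios of Cxcl12 to Cxcr4 and of Cxcr4 to Cxcr7 on leaving out each library, while the ratio of Cxcl12 to Cxcr7 was not rerun. Leaving out 1 of 3 pools cannot move a group mean by more than that spread. Nor can it reverse a difference between groups without overlap, so those runs are no check of these 2 points. On leaving out each library the log2 fold changes ranged from 0.59 to 0.67 for Cxcl12, 0.96 to 1.04 for Cxcr4 and 0.20 to 0.42 for Cxcr7. With the longest transcript as length, Cxcl12 was at 89.9 RPKM in mutants and 58.4 RPKM in controls. Genes called over all genes tested numbered 282 to 696 higher and 343 to 725 lower on leaving out each library, and 315 higher and 350 lower without both pools with few Xist reads. Downstream signalling genes called numbered 1 to 2 higher and 0 to 2 lower on leaving out each library, and 0 higher without those pools. Modulators called lower numbered 0 to 2 on leaving out each library and 0 without those pools. Other receptors called higher numbered 0 to 1 on leaving out each library, and 1 both with no filter on low counts and with DESeq2. Of the 5 nearest profiles, 0 to 3 remained for Cxcl12, 1 to 4 for Cxcr4 and 2 to 4 for Cxcr7 on leaving out each library, an alternative chosen after seeing the data.

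Replicate numbers did not pair the pools: deviations of same-numbered mutant and control pools correlated at 0.141, 0.125 and -0.0701. With the replicate block, log2 fold changes were 0.62 for Cxcl12, 0.99 for Cxcr4 and 0.29 for Cxcr7, 576 genes were called higher and 562 lower, 2 signalling genes were called higher and 0 modulators lower. Of 41 named genes called, 12 lost the call under at least 1 alternative and 0 changed direction. Of 23 not called, 5 were called under at least 1 alternative: Pecam1 (adjusted p = 0.0429) and Cdh5 (adjusted p = 0.0436) by edgeR with the replicate block, gene Ptprc by DESeq2 (adjusted p = 0.0471), gene Rragd by edgeR without control pool 2 (adjusted p = 0.0393), and Ccr2 as given above. Of the same 23, 8 changed sign. Without both pools with few Xist reads, gene Csf1r was at -0.034, Adm at -0.058, Apln at -0.016 and Cx3cr1 at -0.034. Leaving out each library gave -0.061 to 0.017 for Rgs16, -0.45 to 0.055 for Cxcl14, -0.095 to 0.051 for Vegfa and -0.092 to 0.17 for Esm1, which was at -0.0010 with total-count scaling. Why these calls and signs changed was not tested. Genes under about 1 CPM, among them Elane and Ctsg in controls, carry large counting error.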
